A study of Mus musculus with 6 samples.

Results

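Antiviral genes that interferon induces were examined in bulk RNA sequencing of isolated mouse glomeruli, the capillary tufts where the kidney filters blood. The group held 37 genes, picked by symbol out of 57132 gene rows. The rule used no measured value, but the choice was made with earlier results of these data known. The members' shares set beside those of all genes are therefore not an independent test. All 37 had a row and passed the filter on low counts, which left 19927 genes to be tested. All 6 samples carried floxed Setdb2 alleles (Setdb2fl/fl) and the label DKD, for diabetic kidney disease. The 3 samples without Cre recombinase (Cre-/Setdb2fl/fl) are called Cre_negative here, and the 3 samples with it (Cre+/Setdb2fl/fl) are called Cre_positive. The series' design text asks how SETDB2 of podocytes, epithelial cells wrapped around the glomerular capillaries, bears on the disease. SETDB2 belongs to the SET-domain family of histone methyltransferases. The sources used here do not give the Cre driver, the disease model, the strain, the age or the sex, and glomeruli without the disease were not analysed here. The genes were read in 6 role groups: 5 nucleic acid sensors, 7 OAS and Mx effectors, 8 IFIT and other effectors, 7 genes of the ubiquitin-like system, 3 interferon regulatory factors (IRF) and 7 other interferon-stimulated genes.

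Interferons are secreted proteins that bind cell-surface receptors and activate JAK kinases and transcription factors of the STAT family. A STAT complex with IRF9 binds the interferon-stimulated response element (ISRE) in the promoters of antiviral genes, and STAT pairs, after interferon gamma, bind the gamma-activated site (GAS). The induced proteins sense viral RNA, degrade it, block its translation or tether virus particles. IRF7 is itself induced, so the pathway amplifies its own output. In the human kidney, exposure to interferon has been linked to collapsing glomerular disease.

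The libraries held 53571438 to 58807042 counts. Values per library are given in CPM, the unit of read counts scaled to library size, Cre_negative first, each group in the order of replicates 1, 2 and 3. Setdb2 itself had 9.73, 8.80 and 6.58 against 8.01, 7.80 and 7.29 CPM, with overlapping groups, and its log2 fold change was -0.12 (SE 0.18, adjusted p = 0.738 in edgeR's quasi-likelihood test with Benjamini-Hochberg adjustment). Its gene-level count therefore did not check the genotype labels. The labels do not tie each replicate to a mouse of its own, so p-values describe the spread between these samples, which may be technical. Cre_positive replicate 2 stood apart with 24 counts of Xist, a noncoding RNA made from the inactive X chromosome of females, against 36474 to 47632 in the other 5 libraries, while 4 Y-linked genes had 0 counts in all 6. All 7 podocyte, 6 glomerular endothelial and 5 mesangial markers were above the filter. The 6 proximal tubule markers summed to 5508 to 9679 CPM and the podocyte markers to 465 to 751 CPM.

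Antiviral genes were lower in the Cre_positive glomeruli. Of the 37 members 15 fell (40.5%), none rose, and 22 had an adjusted p above 0.05 over all genes tested. At an unadjusted p under 0.05, 32 members were lower, where 12.0% of all genes were, and Rsad2 was higher, where 11.5% were. Over all genes, at the adjusted threshold, 3.82% fell and 3.73% rose, 7.55% together. The median log2 fold change, Cre_positive against Cre_negative, was -0.90 over the members and 0.00 over all genes tested. Of the members, 36 had a log2 fold change below 0, and the range ran from -1.72 for Ifi27l2a to 0.33 for Rsad2. Of the 12 members at least 2-fold lower, 8 passed. For 29 members every Cre_negative library lay above every Cre_positive library in CPM, as it did for 14.5% of all genes. For Rsad2 alone the order was the opposite, as it was for 15.2% of all genes. The groups overlapped for the other 7, which were Eif2ak2, Oas3, Mx1, Cmpk2, Herc6, Trim25 and Ifi44. In these bulk samples, fewer cells of a type and less RNA per cell cannot be told apart.

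**Figure D1:**
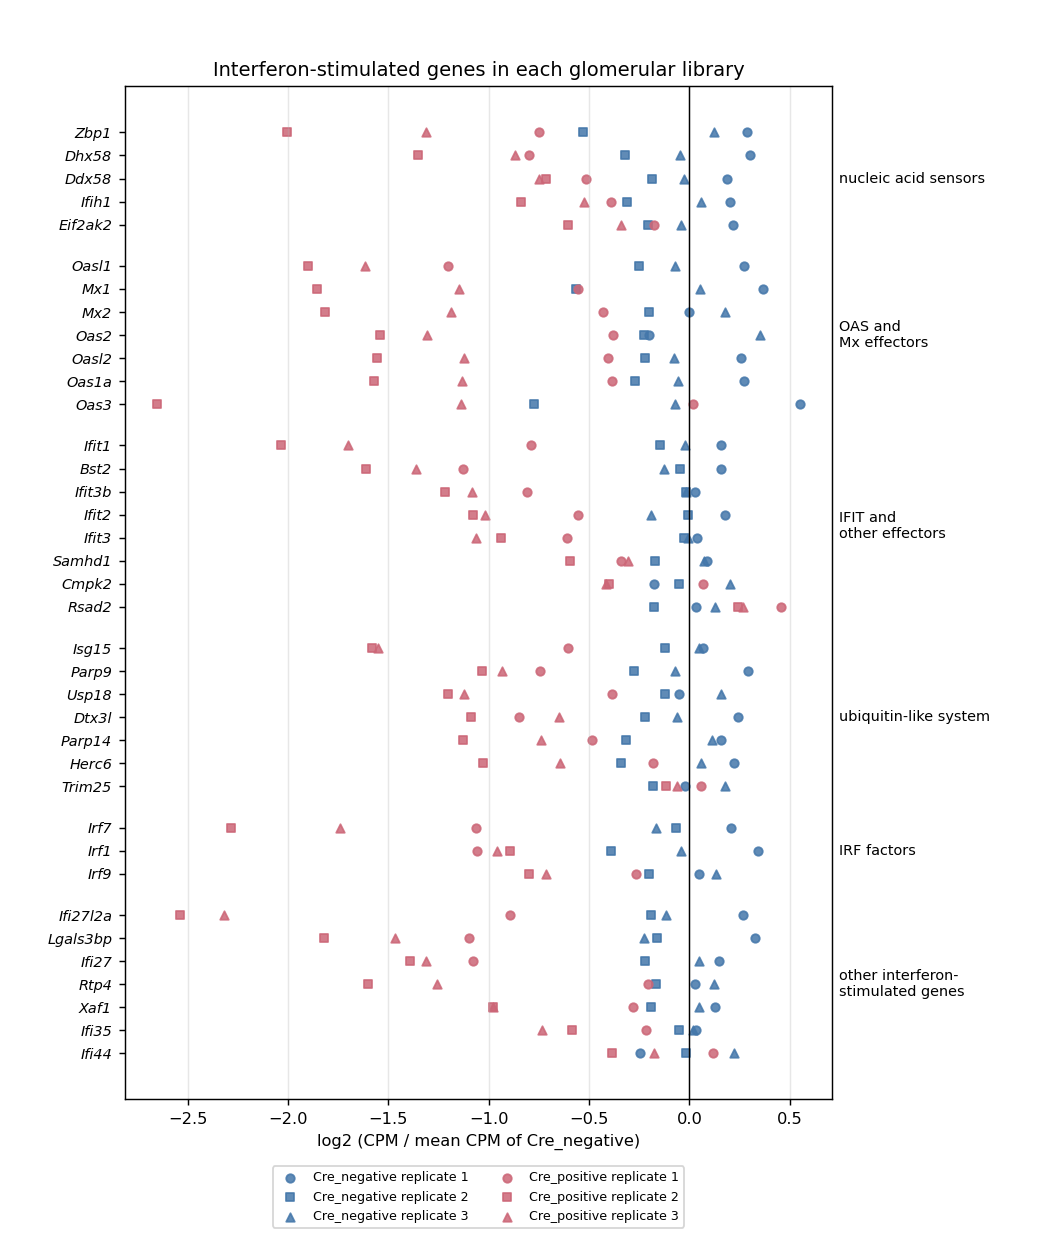
Level of each of the 37 interferon-stimulated genes in each library, as log2 of its CPM over the mean CPM of the 3 Cre_negative libraries (x axis), with genes grouped by role (y axis). Colour marks the group and marker shape the replicate; for 29 genes all Cre_positive points lie left of all Cre_negative ones, and among the Cre_positive points replicate 1 is the highest for 34 genes.

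The count of falls depended on the libraries and on the tool. Without Cre_positive replicate 2, 7 members fell, where 1.58% of all genes fell. Without Cre_positive replicate 3 it was 6 members and 1.25% of all genes, and without Cre_positive replicate 1 it was 24 members and 1.72%. Leaving out Cre_negative replicate 1, 2 or 3 gave 11, 16 and 12 members, where 2.79%, 2.68% and 5.12% of all genes fell. DESeq2 called 29 members lower and Rsad2 higher, where it called 7.18% of all genes lower. At an adjusted p of 0.1, 25 members were lower, and 6.67% of all genes. Oasl1, Ifit3, Ifit3b, Bst2 and Ifi27 fell in each of these fits and in the other settings tried. Among those settings, all genes that fell made up 3.85% with DESeq2 size factors, 3.89% with upper-quartile factors, 3.43% with limma voom, 3.79% with robust=FALSE, 2.36% with no filter, 5.15% with at least 1 CPM in 3 libraries and 4.03% with a term for the replicate number. Without Cre_positive replicate 2, all Cre_negative libraries lay above the Cre_positive ones for 29 members, and for 19.3% of all genes. The opposite order held for 1 member, and for 19.7% of all genes. Leaving out a library cannot lower either count, so these counts do not test how far the order rests on replicate 2.

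**Figure D2:**
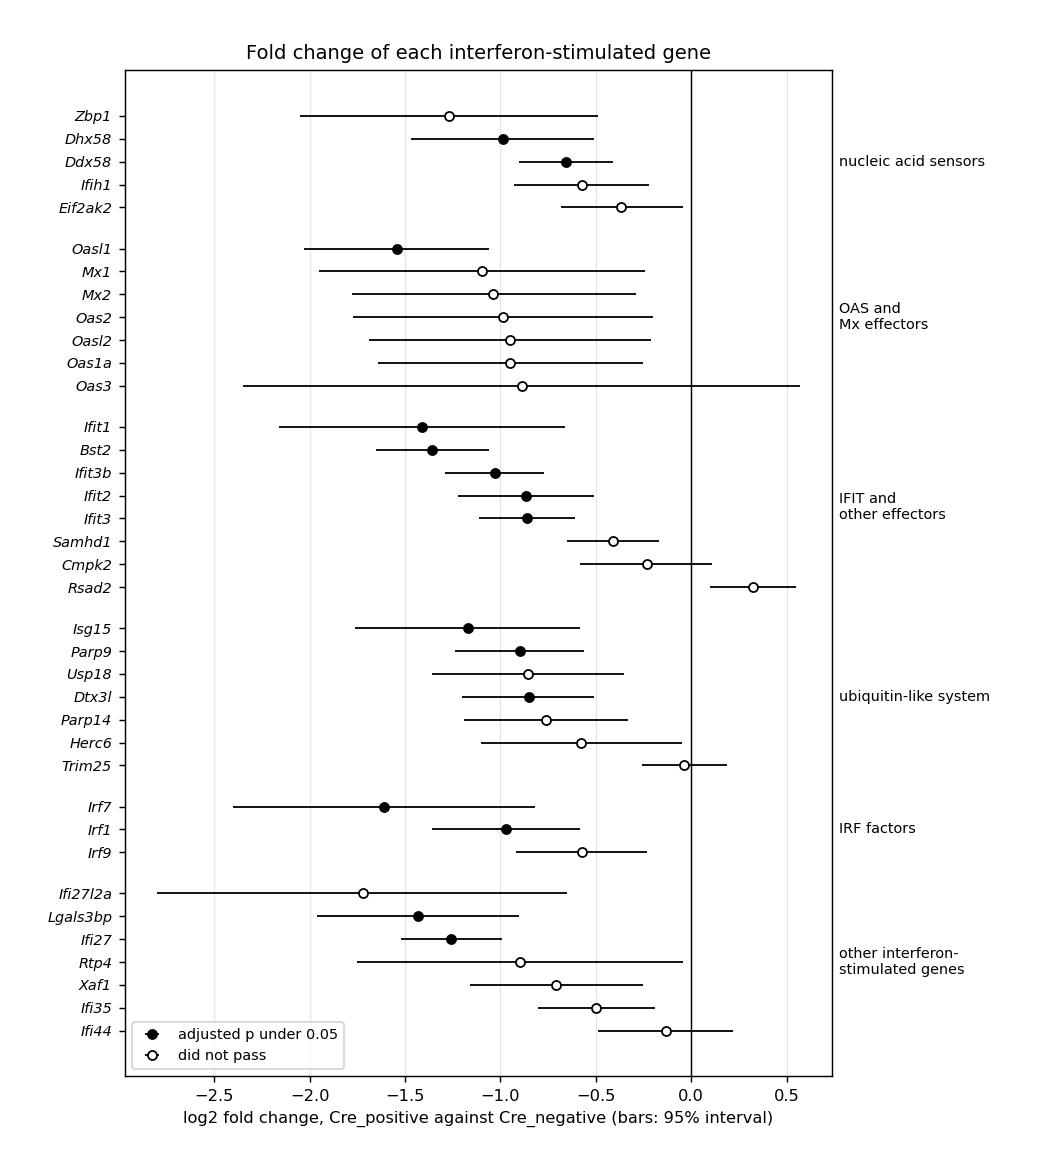
Log2 fold change of each interferon-stimulated gene, Cre_positive against Cre_negative, from edgeR (x axis), with bars for the 95% confidence interval and genes grouped by role (y axis). Filled points are the 15 genes with an adjusted p under 0.05, all of which lie below 0; open points are the 22 others, and the interval of Rsad2 lies above 0.

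Promoter windows are shown for members that fell and hold the ISRE core, the element through which this gene class is known to be induced. The ISRE core was searched as GAAA, any 2 bases and GAAA again, and the GAS as TTC, any 3 bases and GAA, each on both strands with overlaps allowed. The windows are those of RefSeq on GRCm38.p6, from 250 bases before to 50 bases after each gene's start. Of the 37 members, 26 had a window. Of these, 11 (42.3%) held the ISRE core, against 3.99% of 27025 genes, and 7 (26.9%) held the GAS, against 9.55%. The ISRE core was present in 6 of the 12 matched members that fell and in 5 of the 14 others. By role it was found in all 3 matched sensors, 5 of 8 IFIT and other effectors, 2 of 4 OAS and Mx effectors and 1 of 4 genes of the ubiquitin-like system. It was found in none of the 3 IRF genes and none of the 4 matched other interferon-stimulated genes. The first 3 sequences belong to the member with the smallest p in its role group, among those that fell and hold the core. Rsad2 was added after its values were seen, because its window holds the core and its transcript did not fall. Capitals mark the ISRE core, where matches may overlap, and each sequence runs 5′ to 3′ on the strand of its gene.
Isg15: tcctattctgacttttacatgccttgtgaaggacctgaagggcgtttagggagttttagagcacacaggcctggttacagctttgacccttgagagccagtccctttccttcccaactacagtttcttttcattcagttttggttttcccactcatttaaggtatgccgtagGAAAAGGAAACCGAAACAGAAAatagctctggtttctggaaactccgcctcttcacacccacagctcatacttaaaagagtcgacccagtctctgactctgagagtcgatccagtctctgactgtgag
Bst2: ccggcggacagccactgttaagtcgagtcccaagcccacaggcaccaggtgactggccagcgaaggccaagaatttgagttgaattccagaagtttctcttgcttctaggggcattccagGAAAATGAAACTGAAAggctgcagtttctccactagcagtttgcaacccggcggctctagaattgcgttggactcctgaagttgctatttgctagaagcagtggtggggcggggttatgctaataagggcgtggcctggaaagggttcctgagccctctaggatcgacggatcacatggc
Ddx58: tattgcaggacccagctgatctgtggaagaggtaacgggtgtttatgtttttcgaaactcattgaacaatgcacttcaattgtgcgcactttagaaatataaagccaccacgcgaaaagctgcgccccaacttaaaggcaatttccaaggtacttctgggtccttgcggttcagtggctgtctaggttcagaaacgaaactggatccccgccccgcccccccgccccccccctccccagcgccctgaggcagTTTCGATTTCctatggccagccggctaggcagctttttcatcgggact
Rsad2: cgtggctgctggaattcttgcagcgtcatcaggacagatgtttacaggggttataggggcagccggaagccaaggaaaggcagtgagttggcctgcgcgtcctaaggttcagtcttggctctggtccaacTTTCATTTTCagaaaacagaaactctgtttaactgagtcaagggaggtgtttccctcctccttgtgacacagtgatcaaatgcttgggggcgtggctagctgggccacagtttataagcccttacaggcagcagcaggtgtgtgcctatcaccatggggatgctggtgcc
The window of Isg15 lies at chr4:156200769-156201068 on the minus strand and holds 3 overlapping cores. That of Bst2 lies at chr8:71537423-71537722 on the minus strand and holds 2 overlapping cores and 1 GAS match. That of Ddx58 lies at chr4:40239776-40240075 on the minus strand, and its single core begins 2 bases after the start and reads on the opposite strand. The window of Rsad2 lies at chr12:26456403-26456702 on the minus strand and also holds a single core that reads on the opposite strand. A match describes letters and does not show that a factor binds there.

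The interferons themselves were at or near 0. Of 20 interferon genes, 17 had 0 counts in all 6 libraries, which allows up to 3 counts in a library, or 0.0510 to 0.0560 CPM, for counting error only. Ifng, which encodes interferon gamma, had 7, 3 and 0 counts in Cre_negative against 0, 0 and 3 counts in Cre_positive libraries. Ifnb1 and Ifnab each had 4 counts in Cre_negative replicate 2 and 0 elsewhere. None of the 20 passed the filter, so a difference in interferon transcripts was not detectable at this depth.

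Among the 11 genes of interferon receptors and JAK-STAT signalling, Stat2 and Ifnlr1 fell and none rose, with a list median of -0.15. Over all genes 3.82% fell and 3.73% rose. Stat2, a transcription factor of type I and type III signalling, had 84.4, 62.3 and 76.1 against 53.2, 34.9 and 42.0 CPM. The groups did not overlap, and its log2 fold change was -0.78 (SE 0.17, adjusted p = 0.0341). Ifnlr1, the specific chain of the type III interferon receptor of epithelia, had 9.32, 7.73 and 9.54 against 5.06, 4.74 and 4.55 CPM, at -0.89 (SE 0.16, adjusted p = 0.0145). The type I receptor genes did not pass. Named after their values were seen, Ifnar1 stood at 0.07 (95% confidence interval -0.09 to 0.22) and Ifnar2 at 0.04 (interval -0.14 to 0.21). Also named after their values were seen, the interferon gamma receptor genes Ifngr1 and Ifngr2 did not pass. Ifngr1 stood at -0.32 (interval -0.63 to -0.01, adjusted p = 0.197) and Ifngr2 at -0.37 (interval -0.61 to -0.14, adjusted p = 0.0629). For both, every Cre_negative library lay above every Cre_positive one, as for 14.5% of all genes. The call of Ifnlr1 ended without replicate 2 or 3 of Cre_positive (adjusted p up to 0.0761), and that of Stat2 ended without either of these or without Cre_negative replicate 1 or 3 (adjusted p up to 0.130).

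Of the 3 IRF members, Irf7 and Irf1 fell, where 3.82% of all genes did, and Irf9 did not pass. Irf7, the factor that drives the second wave of interferon and antiviral gene transcription, had 137, 113 and 106 against 56.6, 24.3 and 35.5 CPM. Every Cre_positive library lay below every Cre_negative one, although Cre_positive replicate 1 was well above the other two. The log2 fold change of Irf7 was -1.61 (SE 0.32, adjusted p = 0.0406), or 3.05-fold lower. Its call ended without any 1 Cre_negative library, without Cre_positive replicate 3 (adjusted p up to 0.143) and with no filter on low counts. Irf1, an early factor that interferon gamma induces, had 64.8, 38.9 and 49.7 against 24.5, 27.5 and 26.3 CPM. Here the Cre_negative libraries varied and the Cre_positive ones were close together, and the log2 fold change was -0.97 (SE 0.17, adjusted p = 0.0148). The call of Irf1 ended without any 1 Cre_positive library (adjusted p up to 0.0726). Irf9, the DNA-binding partner of STAT2, had 63.9, 53.6 and 67.6 against 51.3, 35.5 and 37.6 CPM, at -0.57 (SE 0.15, adjusted p = 0.0574). Irf9 overlaps Rnf31 on its own strand and Irf7 overlaps Phrf1, so reads of the shared stretches may have been assigned to the neighbour.

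Among the nucleic acid sensors, Ddx58 and Dhx58 fell, where 3.82% of all genes did, and Ifih1, Zbp1 and Eif2ak2 did not pass. Ddx58 encodes RIG-I, which detects short viral RNA with triphosphate ends, and had 80.5, 62.0 and 69.3 against 49.4, 43.0 and 42.1 CPM. The groups did not overlap, and its log2 fold change was -0.66 (SE 0.11, adjusted p = 0.0102). Dhx58, which encodes LGP2, a regulator of the same helicase family, had 14.4, 9.32 and 11.3 against 6.70, 4.56 and 6.39 CPM, at -0.99 (SE 0.21, adjusted p = 0.0263). The call of Ddx58 ended without replicate 2 or 3 of Cre_positive (adjusted p up to 0.0615), and that of Dhx58 without any 1 Cre_positive library or Cre_negative replicate 1 (adjusted p up to 0.0943). Ifih1, which encodes MDA5, the sensor of long double-stranded RNA, had 38.7, 27.2 and 35.0 against 25.7, 18.8 and 23.4 CPM, at -0.57 (SE 0.16, adjusted p = 0.0629). Zbp1, a sensor of left-handed nucleic acids that can trigger necroptosis, had 15.2, 8.59 and 13.5 against 7.39, 3.09 and 4.99 CPM. Its log2 fold change of -1.27 was larger than those of the sensors that passed, but so was its error (SE 0.34, adjusted p = 0.0644). Eif2ak2, the kinase PKR that halts translation, had the smallest difference of the sensors at -0.37 (SE 0.14, adjusted p = 0.160), and its groups overlapped.

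A further list of 14 genes held more sensors, Toll-like receptors among them, with adaptors, kinases and IRF factors. Of these 3 fell, where 3.82% of all genes did, none rose and 11 did not pass, with a median of -0.15. Sting1 (Tmem173 in the symbol table), the adaptor of cytosolic DNA sensing, had 16.3, 9.13 and 10.5 against 5.01, 5.25 and 4.64 CPM, and its log2 fold change was -1.27 (SE 0.22, adjusted p = 0.0131). Tlr7, an endosomal sensor of single-stranded RNA, stood at -1.14 (SE 0.28, adjusted p = 0.0424). Myd88, the adaptor of most Toll-like receptors, stood at -0.36 (SE 0.091, adjusted p = 0.0481). Leaving out any 1 Cre_positive library ended all 3 of these calls, with adjusted p up to 0.0707 for Sting1, while the calls of Tlr7 and Myd88 also ended without Cre_negative replicate 1 or 2, and that of Myd88 without Cre_negative replicate 3 (adjusted p up to 0.157 for each). Both calls also ended with limma voom, and that of Myd88 with robust=FALSE, with no filter on low counts and with a term for the replicate number.

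In the OAS and Mx group, 1 of 7 members fell, where 3.82% of all genes did, and 6 did not pass. Still, all 7 had a log2 fold change below 0, and the median was -0.98. OAS enzymes make short oligoadenylates that activate RNase L, and Mx proteins are GTPases that block viral nucleocapsids. Oasl1, an OAS-like protein known to repress translation of Irf7 mRNA, had 17.6, 12.3 and 13.9 against 6.36, 3.92 and 4.77 CPM. The groups were far apart, and the log2 fold change was -1.54 (SE 0.21, adjusted p = 0.00470), or 2.92-fold lower. Oasl2 had 68.1, 49.0 and 54.1 against 43.0, 19.4 and 26.2 CPM, at -0.95 (SE 0.30, adjusted p = 0.129). Oas2 had 23.4 ± 5.62 against 11.8 ± 5.39 CPM (SD, n = 3), at -0.99 (SE 0.33, adjusted p = 0.136). In Oasl2 and Oas2 the groups did not overlap, but Cre_positive replicate 1 lay close to the lowest Cre_negative library. Oas1a, Mx2 and Mx1 had log2 fold changes of -0.95, -1.04 and -1.09 with adjusted p-values of 0.107, 0.0973 and 0.121. Mx1 was low, at 3.31 ± 1.02 against 1.55 ± 0.671 CPM (SD, n = 3). Oas3 had 3.72, 1.49 and 2.42 against 2.57, 0.404 and 1.16 CPM, and the interval of its log2 fold change ran from -2.35 to 0.57. Of the 50-base words in Oas1a transcripts, 57.6% also occur in Oas1g, so the counts of this pair are uncertain.

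Of the 8 IFIT and other effectors 5 fell, where 3.82% of all genes did, and 3 did not pass. Some IFIT proteins bind foreign RNA that lacks host cap methylation and block its translation. Bst2, which encodes tetherin, an anchor that holds budding virus particles on the cell, had 92.0, 79.7 and 75.4 against 37.6, 26.9 and 32.0 CPM. It was 2.56-fold lower, and its log2 fold change was -1.36 (SE 0.13, adjusted p = 0.000999). Ifit3 had 87.5, 83.7 and 85.0 against 55.9, 44.5 and 40.9 CPM, at -0.86 (SE 0.11, adjusted p = 0.00370). Its paralogue Ifit3b had 33.2, 32.2 and 32.2 against 18.5, 14.0 and 15.3 CPM, at -1.03 (SE 0.11, adjusted p = 0.00182). Both were nearly level across the Cre_negative libraries, with a coefficient of variation of 2.30% for Ifit3 and 1.81% for Ifit3b. The transcripts of Ifit3 share 51.2% of their 50-base words with Ifit3b, so the split of reads between the pair is uncertain and the 2 are not independent measurements. Ifit2, an RNA-binding member of the family, had 50.8, 44.8 and 39.4 against 30.6, 21.3 and 22.2 CPM, at -0.87 (SE 0.15, adjusted p = 0.0146). Its call ended without replicate 2 or 3 of Cre_positive (adjusted p up to 0.0726). Ifit1, which binds the cap itself, had 32.9, 26.6 and 29.0 against 17.1, 7.18 and 9.06 CPM, at -1.41 (SE 0.31, adjusted p = 0.0451). The call of Ifit1 ended without any 1 library except Cre_positive replicate 1 (adjusted p up to 0.150) and with no filter on low counts.

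Rsad2, Cmpk2 and Samhd1 of the same group did not pass. Rsad2, which encodes viperin, an enzyme that makes a chain-terminating nucleotide, had 43.4, 37.5 and 46.3 against 58.2, 50.1 and 51.0 CPM. All Cre_positive libraries lay above all Cre_negative ones, but the log2 fold change was 0.33 (SE 0.10, adjusted p = 0.0880, 95% confidence interval 0.10 to 0.55), which passed in DESeq2 alone of the tools run. Cmpk2, a mitochondrial nucleotide kinase, neighbours Rsad2 on chromosome 12 on the opposite strand. Cmpk2 had 32.6, 35.5 and 42.3 against 38.5, 27.9 and 27.6 CPM, with overlapping groups, at -0.23 (SE 0.15, adjusted p = 0.407). Samhd1, which depletes the nucleotides that viruses need, stood just outside the threshold at -0.41 (SE 0.11, adjusted p = 0.0502).

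In the ubiquitin-like system, Isg15, Dtx3l and Parp9 fell, where 3.82% of all genes did. Usp18, Herc6, Trim25 and Parp14 did not pass. ISG15 is a small protein that is attached to other proteins in the way of ubiquitin, HERC6 is the mouse ligase that attaches it, and USP18 removes it and also restrains the type I receptor. Isg15 had 16.2, 14.2 and 15.9 against 10.1, 5.16 and 5.26 CPM, at -1.17 (SE 0.26, adjusted p = 0.0307). Cre_positive replicate 1 was well above the other Cre_positive libraries, and leaving out any library but that one ended the call (adjusted p up to 0.116). Usp18 had 13.4, 12.8 and 15.5 against 10.6, 6.04 and 6.37 CPM, at -0.86 (SE 0.22, adjusted p = 0.0532). Herc6 stood at -0.58 (SE 0.23, adjusted p = 0.174) with overlapping groups. Ube2l6, which encodes the conjugating enzyme for ISG15 and is no member, had 22.9, 17.7 and 19.0 against 11.0, 7.88 and 9.47 CPM, at -1.07 (SE 0.16, adjusted p = 0.00592).

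Dtx3l and Parp9 encode a ubiquitin ligase and its ADP-ribosyltransferase partner, which act as a complex. Dtx3l had 32.0, 23.2 and 26.0 against 15.0, 12.7 and 17.2 CPM, at -0.85 (SE 0.15, adjusted p = 0.0135). Parp9 had 53.5, 36.1 and 41.6 against 26.1, 21.4 and 22.9 CPM, at -0.90 (SE 0.15, adjusted p = 0.0106). The groups did not overlap for either gene. The call of Dtx3l ended without replicate 1 or 2 of Cre_positive (adjusted p up to 0.0568), and that of Parp9 without replicate 2 or 3 of Cre_positive (adjusted p up to 0.0601). The genes overlap on opposite strands, and no source used here gives the strand setting of the counting, so reads of the shared stretch cannot be told apart. Parp14, a larger family member, had 78.6, 56.7 and 76.2 against 50.3, 32.3 and 42.2 CPM, at -0.76 (SE 0.19, adjusted p = 0.0527). Trim25, a ligase that activates RIG-I, differed least of all 37, at 109.6 ± 13.8 against 107 ± 6.73 CPM (SD, n = 3), with a log2 fold change of -0.04 and an interval from -0.26 to 0.19.

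Among the other interferon-stimulated genes, Ifi27 and Lgals3bp fell, where 3.82% of all genes did, and 5 members did not pass. Ifi27, which encodes a small membrane protein of mitochondria, had 167, 129 and 156 against 71.1, 57.3 and 60.6 CPM. It had the smallest adjusted p of the 37, and its log2 fold change was -1.26 (SE 0.12, adjusted p = 0.000804), or 2.39-fold lower. Lgals3bp, which encodes a secreted galectin-binding glycoprotein, had 461, 329 and 314 against 172, 104 and 133 CPM, at -1.43 (SE 0.22, adjusted p = 0.0144). Its call ended without Cre_positive replicate 3 (adjusted p up to 0.0661). Ifi27l2a had the largest fold of the members, with 21.8, 15.9 and 16.7 against 9.75, 3.13 and 3.63 CPM, but its log2 fold change of -1.72 came with a wide error (SE 0.45, adjusted p = 0.0723). Ifi35, Xaf1 and Rtp4 stood at -0.50, -0.71 and -0.90 with adjusted p-values of 0.0592, 0.0692 and 0.193. Ifi44 stood at -0.13 (interval -0.49 to 0.22).

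Per kilobase of exon, the most abundant members in Cre_negative libraries were Lgals3bp at 129, Ifi27 at 103, Bst2 at 91.2, Ifit3 at 48.9, Ifi27l2a at 39.2 and Irf7 at 31.4 mean CPM per kilobase. The same mean levels in Cre_positive libraries were 47.9 for Lgals3bp, 42.9 for Ifi27, 35.7 for Bst2 and 27.0 for Ifit3. The lowest levels in Cre_negative were those of Oas3 at 0.359, Mx1 at 0.875 and Mx2 at 1.62 CPM per kilobase. Lengths are exon unions of GENCODE M21 on GRCm38, so these levels order the genes only roughly.

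Members differed in how far Cre_positive replicate 1 lay from replicates 2 and 3. It was the highest Cre_positive library for 34 of 37 members, where it was so for 33.7% of all genes tested. For 15 members its CPM was at least 1.5 times the mean of the other 2, a count not made over all genes. The ratio was 3.30 for Oas3, 2.89 for Ifi27l2a, 2.32 for Rtp4, 2.10 for Ifit1, 2.06 for Oas2, 1.94 for Isg15 and 1.89 for Irf7. It was 1.21 for Ifi27, 1.28 for Bst2, 1.16 for Ddx58, 1.00 for Dtx3l and 0.912 for Irf1. Without Cre_positive replicate 1, 12 members passed that did not pass with all libraries. They were Zbp1, Oas1a, Oas2, Oasl2, Mx2, Usp18, Parp14, Irf9, Ifi35, Rtp4, Xaf1 and Ifi27l2a. The reverse held for 3 members, Dhx58, Dtx3l and Irf1. Replicate 1 was the highest Cre_positive library for each of the 12 gained members, so leaving it out lowers their Cre_positive mean by construction. The gain is therefore not a separate test. In Cre_negative, replicate 1 was the highest library for 28 of 37 members, where it was so for 34.5% of all genes tested. Replicate 2 was the lowest library for 31 of 37 members in Cre_positive and for 31 in Cre_negative, a count not made over all genes. Cre_positive replicate 2 is the library with 24 counts of Xist.

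**Figure D3:**
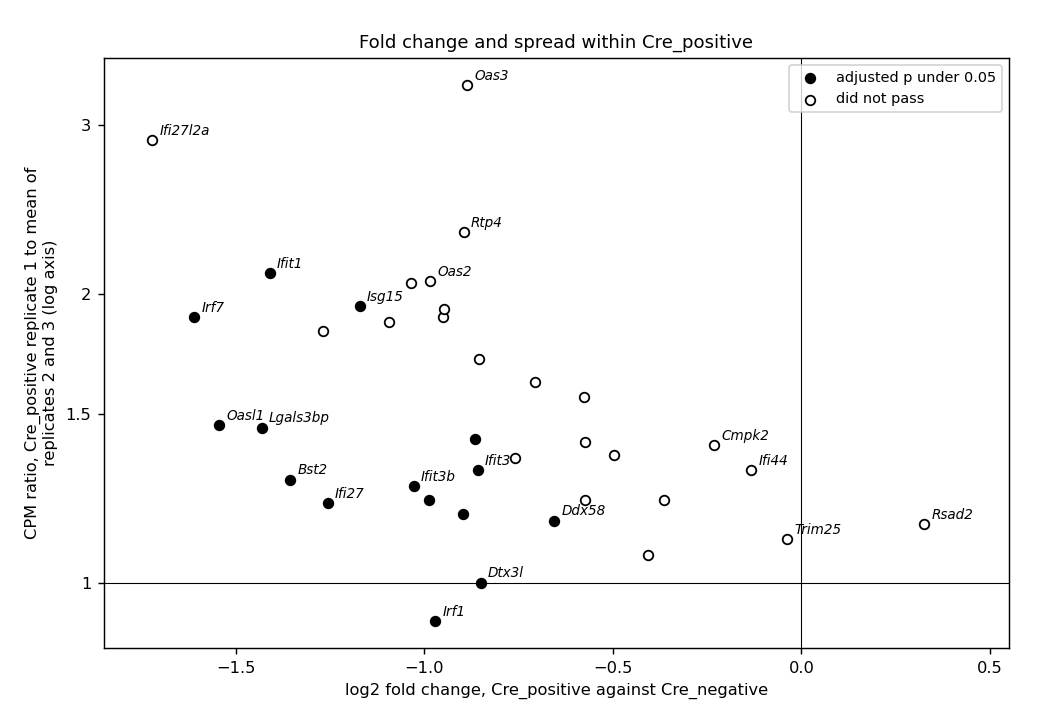
Ratio of the CPM in Cre_positive replicate 1 to the mean of Cre_positive replicates 2 and 3 (y axis, log scale) against the log2 fold change between genotypes (x axis), 1 point per interferon-stimulated gene. Filled points have an adjusted p under 0.05. Ifi27 (1.21) and Bst2 (1.28) combine a large fall with a small ratio, while Ifi27l2a (2.89) and Rtp4 (2.32) lie higher and did not pass. Ifit1 (2.10) and Isg15 (1.94) also lie higher but passed, and Trim25 (1.11) has a small ratio and did not pass.

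Beyond the members, 43 further interferon-stimulated genes were examined. Of these 10 fell, 1 rose and 32 did not pass, with a median of -0.50, where 3.82% of all genes fell and 3.73% rose. Parp10, an ADP-ribosyltransferase, had 69.8, 60.4 and 57.5 against 38.2, 30.2 and 31.8 CPM, at -0.91 (SE 0.11, adjusted p = 0.00290). Oas1c, an OAS family member, stood at -1.01 (SE 0.17, adjusted p = 0.0118), a call that ended without Cre_positive replicate 3 (adjusted p up to 0.0659). Ifi27l2b, a relative of Ifi27, had 107, 54 and 59 counts in Cre_negative against 5, 0 and 0 counts in Cre_positive libraries (adjusted p = 0.0131), and its call also ended without Cre_positive replicate 3 (adjusted p up to 0.0534). The calls of Parp10 and Ube2l6 held with each library left out. The gene that rose, Slfn5 of the Schlafen family, is named after its values were seen and had 45.0, 49.6 and 59.1 against 73.8, 69.4 and 75.3 CPM, at 0.51 (SE 0.10, adjusted p = 0.0210). Its call ended without Cre_negative replicate 2 or any 1 Cre_positive library (adjusted p up to 0.0969).

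Of 10 genes that restrain interferon signalling, Socs3, an inhibitor of JAK kinases, fell and 9 did not pass, where 3.82% of all genes fell. Socs3 had 19.7, 9.20 and 7.77 against 3.36, 4.90 and 4.62 CPM, at -1.51 (SE 0.36, adjusted p = 0.0481). Its call ended without Cre_negative replicate 2 or any 1 Cre_positive library (adjusted p up to 0.155), and also with limma voom, with no filter on low counts and with a term for the replicate number.

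**Figure D4:**
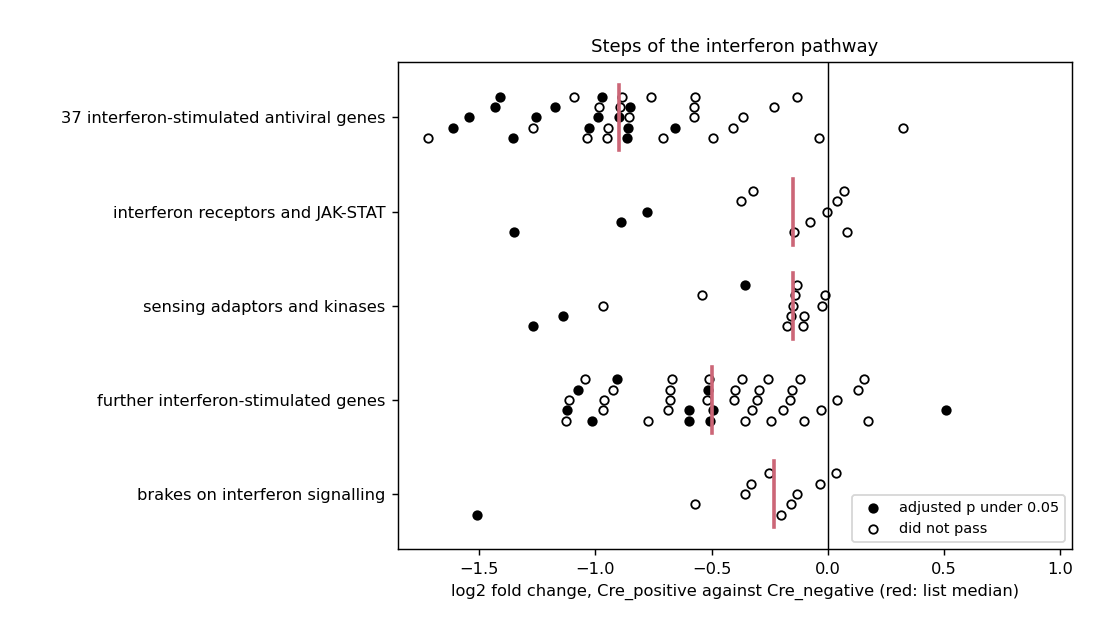
Log2 fold changes, Cre_positive against Cre_negative (x axis), of the 37 members and of 4 other lists of the interferon pathway (rows), 1 point per gene, filled where the adjusted p is under 0.05 and with the list median as a red bar. The medians are -0.90 for the members, -0.15 for receptors and JAK-STAT, -0.15 for adaptors and kinases, -0.50 for further stimulated genes and -0.23 for brakes; Ifi27l2b, near 0 counts in Cre_positive, is not drawn.

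Markers of several cell types moved with the genotype as well. The 10 macrophage markers had a mean log2 CPM of 4.62, 3.38 and 3.99 in Cre_negative against 3.21, 3.05 and 3.15 in Cre_positive libraries. Their median log2 fold change was -0.94, beside -0.90 for the 37 members, and 9 of the 10 were below 0. For 5 of the 10 every Cre_negative library lay above every Cre_positive one, as it did for 14.5% of all genes. The mean log2 CPM of the 37 members was 5.12, 4.76 and 5.00 against 4.47, 3.73 and 4.00. Of the macrophage markers 1 fell, where 3.82% of all genes did. It was the complement gene C1qc at -1.25 (SE 0.23, adjusted p = 0.0193), a call that ended without any 1 Cre_positive library (adjusted p up to 0.0893). The other 9 did not pass. They ran from -2.16 for the integrin gene Itgam (adjusted p = 0.0678) to 0.18 for the growth factor receptor gene Csf1r (adjusted p = 0.553), the 1 marker above 0. The summed macrophage level was 176 to 329 CPM in Cre_negative against 174 to 187 CPM in Cre_positive libraries, and none of the 10 was at 0. Csf1r was the most abundant of them, with 80.8, 62.8 and 97.8 against 87.0, 101 and 85.0 CPM.

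The cell cycle markers, 6 genes of which none passed, had a median log2 fold change of -1.17, and all 6 were below 0. Their mean log2 CPM was 4.72 in Cre_negative replicate 1 against 2.42 to 3.22 in the other 5 libraries. The podocyte, glomerular endothelial, mesangial and proximal tubule markers had list medians of 0.33, 0.62, 0.60 and 0.71. In that order, 2 of 7, 6 of 6, 3 of 5 and 4 of 6 of them rose, where 3.73% of all genes did. The 7 T and B cell markers summed to 4.38 to 7.91 CPM in Cre_negative against 8.14 to 10.5 CPM in Cre_positive libraries, and none passed. Of the 5 neutrophil markers 2 were above the filter, with a median of -1.21, and none passed. The plasmacytoid dendritic cell markers, which include the member Bst2, had 4 of 5 above the filter and a median of 0.01. Besides Bst2, which fell, Tcf4 rose at 0.49 (SE 0.11, adjusted p = 0.0319), a call that ended without any 1 library except Cre_negative replicate 3 (adjusted p up to 0.116), and Irf8 and Ccr9 did not pass, at -0.48 and 0.57. Siglech, below the filter, had 0, 0 and 4 counts against 23, 13 and 8 counts. The part of these cell types in the differences of the antiviral genes was not tested.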

How the data were processed

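RNA from 6 samples of glomeruli was poly(A)-selected and made into dUTP libraries for paired-end sequencing, per the labels' protocols. The submitters' processing notes list GRCm39 and the tools fastp, HISAT2, StringTie and edgeR, without versions or roles. The file deposited by the authors holds whole-number counts, 1 row per Ensembl gene identifier. No source used here gives the annotation release, the strand setting or the treatment of reads that match several places.

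A table of Ensembl identifiers gave symbols for 51880 of 57132 rows. The whole table was fitted in R 4.3.3 with edgeR 4.0.16 (filterByExpr, TMM factors of 0.979 to 1.03, quasi-likelihood test with robust=TRUE), with Benjamini-Hochberg adjustment over 19927 genes and a threshold of 0.05. Every adjusted p given without a tool comes from this test. CPM values use the TMM-scaled totals, and list means use log2 CPM with a prior count of 2. The common biological coefficient of variation was 21.5%. The fit was tested on simulated data. Chi-square per degree of freedom between libraries, over genes with at least 50 counts, was 20.6 or more, so no library was a copy of another. The other settings were DESeq2 1.42.0, limma 3.58.1 (voom), other scaling factors, filters and thresholds, a replicate block and each library left out. The count of members without overlap was repeated without Cre_positive replicate 2, a setting chosen after seeing the data. Transcripts of GENCODE M21 and promoter windows of RefSeq (GRCm38.p6, another build than the notes name) served for sequence and length only. The members and lists were chosen with earlier results of these data known. The text names all 37 members, Setdb2 and, of each pathway list, up to 4 genes that passed, by smallest p, except that 1 result of the receptor list is not reported here. Other genes were named after their values were seen.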

Additional observations from a re-analysis of the deposited data

How the results depend on the processing

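DESeq2 size factors or upper-quartile factors in edgeR changed no call among the 37 members. The count of members that fell was 15. It was 29 with DESeq2, 25 at an adjusted p of 0.1 and 28 with the replicate block, and ranged from 6 to 24 with each library left out. It was 15 to 19 with limma voom, robust=FALSE and the other filters. The count of members that rose was 0, with 1 (Rsad2) in DESeq2 and at an adjusted p of 0.1. Over all genes 1505 were called, against 2697 with DESeq2, 2562 at an adjusted p of 0.1 and 462 to 2039 with each library left out. The median log2 fold change of the members ranged from -1.09 to -0.745 with each library left out. With each library left out, the log2 fold change of Trim25 ranged from -0.123 to 0.061, above 0 without Cre_negative replicate 3 and, at 0.001, without Cre_positive replicate 2. That of Setdb2 ranged from -0.267 to 0.002, above 0 without Cre_negative replicate 1. Same-numbered libraries of the 2 genotypes had correlations of 0.055, 0.055 and 0.017 in their deviations from the group means. Each library correlated best with its own number, but all were under 0.1, so the numbers were not taken as pairs. The cause of these changes was not tested. Fits with a library left out also hold fewer samples. None of the 20 interferon genes passed the filter on low counts, and the cause of their low counts was not tested.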
